A study of Mus musculus with 8 samples.

Results

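Leukocyte chemokine receptors were followed here as 9 genes, Ccr1, Ccr2, Ccr4, Ccr7, Cxcr2, Cxcr3, Cxcr4, Cxcr6 and Cx3cr1. They were taken by name, and all 9 were found among the 27179 genes of the count table and had enough reads to be tested. RNA from 8 whole primary mammary tumours was sequenced, 4 formed by 4T1.13-VC cells and 4 by 4T1.13-miR-21-KD cells. 4T1.13 is a metastatic mouse mammary carcinoma line of BALB/c origin. In both groups 100000 cells were placed in the mammary fat pad of young adult female BALB/c mice with an intact immune system, and the tumours were taken, by the labels, on day 14, at the time the miR-21-KD tumours began to regress. The methods of the study give an earlier day for the same tumours, so the day is uncertain. Both lines carried a lentiviral vector with mCherry and hygromycin resistance. In the miR-21-KD line its H1 promoter drove an RNA that binds and holds mature miR-21, and in the vector control (VC) line a scrambled RNA. Each line was a pool of several clones, so differences between the pools and the effect of the knockdown cannot be told apart. The vector was in the tumour cells only, and the leukocytes came from mice with unaltered miR-21.

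Chemokine receptors are G protein-coupled receptors that steer leukocytes along gradients of chemokines, small secreted proteins of the CC, CXC and CX3C families. Each receptor marks cells by where they can go. Ccr2 brings inflammatory monocytes out of the bone marrow, Ccr7 takes T cells and maturing dendritic cells to lymph nodes, Cxcr2 brings neutrophils, Cxcr3 and Cxcr6 are carried by effector T cells, Ccr4 by regulatory and type 2 helper T cells, and Cx3cr1 by patrolling monocytes and tissue macrophages. Cxcr4, the receptor of Cxcl12, is carried by most leukocytes and also by many tumour cells.

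The mature microRNA that the vector holds is shown with its seed, bases 2 to 8, in capitals. It lies at chr11:86584120-86584141 on the minus strand (RefSeq, GRCm38.p6).
mmu-miR-21a-5p: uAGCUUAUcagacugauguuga
The longest annotated 3′ UTR of each receptor gene (GENCODE vM21, GRCm38) was searched on the transcript strand for ATAAGCT, the complement of the seed, and for TAAGCTA, the complement of bases 2 to 7 followed by A. Cxcr6 was the 1 receptor with a match, at base 563 of a 3′ UTR of 769 bases. It is shown with its surroundings because it is the 1 match found in the 3′ UTRs searched, at chr9:123811543-123811571 on the plus strand, with the match in capitals.
Cxcr6 3′ UTR site: ggccagaataaATAAGCTgaatttcagtg
Of the 20961 genes with a 3′ UTR of at least 30 bases, 11.6% held such a match, and of the 12102 whose 3′ UTR was as long as those of the receptors (416 to 2701 bases) 9.72% did. The match is a description of the letters.

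The libraries held 12134849 to 13592695 counts in VC tumours and 12550898 to 12783800 in miR-21-KD tumours. Replicates are separate tumours by number, and the labels do not say more, so p-values measure the spread between these tumours. The Mir21a gene had 0 counts in all 8 libraries, which allows up to 0.221 to 0.245 CPM (counts scaled by library size) per library, for counting error only, so the knockdown could not be checked in this table. Vmp1, the gene whose end overlaps the primary miR-21 transcript, had means of 354 ± 18.2 CPM in VC (SD, n = 4) and 365 ± 16.1 CPM among miR-21-KD tumours, with an adjusted p of 0.704. VC replicate 4 stood apart from the other libraries. Its second principal component score was -59.2, against -7.36 to 20.5 for the others, and its summed level of 7 B cell markers was 206 CPM, against 16.7 to 20.7 in the other VC tumours. Both replicates 4 were high in lymphoid tissue markers. The B cell sum of miR-21-KD replicate 4 was 124 CPM, against 40.5 to 76.6 in the other miR-21-KD tumours. The sum of 6 lymph node stroma markers was 51.4 CPM in miR-21-KD replicate 4 and 19.6 CPM in VC replicate 4, against 0.638 to 8.02 in the others. Of the 7 B cell markers 5 had enough reads to be tested, and of the 6 lymph node stroma markers only 2. Among these no gene passed the test in edgeR (0 also at an unadjusted p under 0.05) or in DESeq2 (1 of each list at an unadjusted p under 0.05). In limma-voom 1 of the 2 lymph node stroma genes was called. With so few genes tested, these counts say little about a difference between the groups. With either tumour left out alone, Ccr1, Ccr2 and Ccr7 passed the edgeR test. Without miR-21-KD replicate 4, Ccr4, Cxcr3 and Cxcr6 lost the call (adjusted p = 0.0821, 0.0797 and 0.0513), and Ccr4 also lost it without VC replicate 4 (0.0716). The 2 tumours were not left out together, and the part of these markers in the receptor results was not tested.

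Of the 9 receptors, 6 rose in miR-21-KD tumours, none fell and 3 did not pass the test. With the replicate number as a block, 8 rose, Cxcr2 and Cxcr4 being added. Ccr1, Ccr2, Ccr4, Ccr7, Cxcr3 and Cxcr6 rose by 1.69-fold to 3.30-fold, whereas Cxcr2, Cxcr4 and Cx3cr1 missed the threshold, an adjusted p of 0.05 in edgeR's quasi-likelihood test over 14382 genes. Across all tested genes 19.6% rose and 19.5% fell. At an unadjusted p under 0.05 the count of receptors that were lower was again 0 in edgeR, and it was 1, Cx3cr1, in DESeq2. The median log2 fold change of the receptors was 0.89, against -0.01 over all tested genes. In 5 receptors (Ccr1, Ccr2, Ccr4, Ccr7 and Cxcr6) the lowest miR-21-KD tumour lay above the highest VC tumour, which held for 16.3% of all tested genes. In whole tumours more cells of a type and more RNA per cell cannot be told apart. Without VC replicate 3 the count of 6 became 2, Ccr1 and Ccr7, and without miR-21-KD replicate 1 or replicate 4 it became 3. Without VC replicate 4 it was 6, with Ccr4 lost (0.0716) and Cxcr4 gained (0.045).

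**Figure D1:**
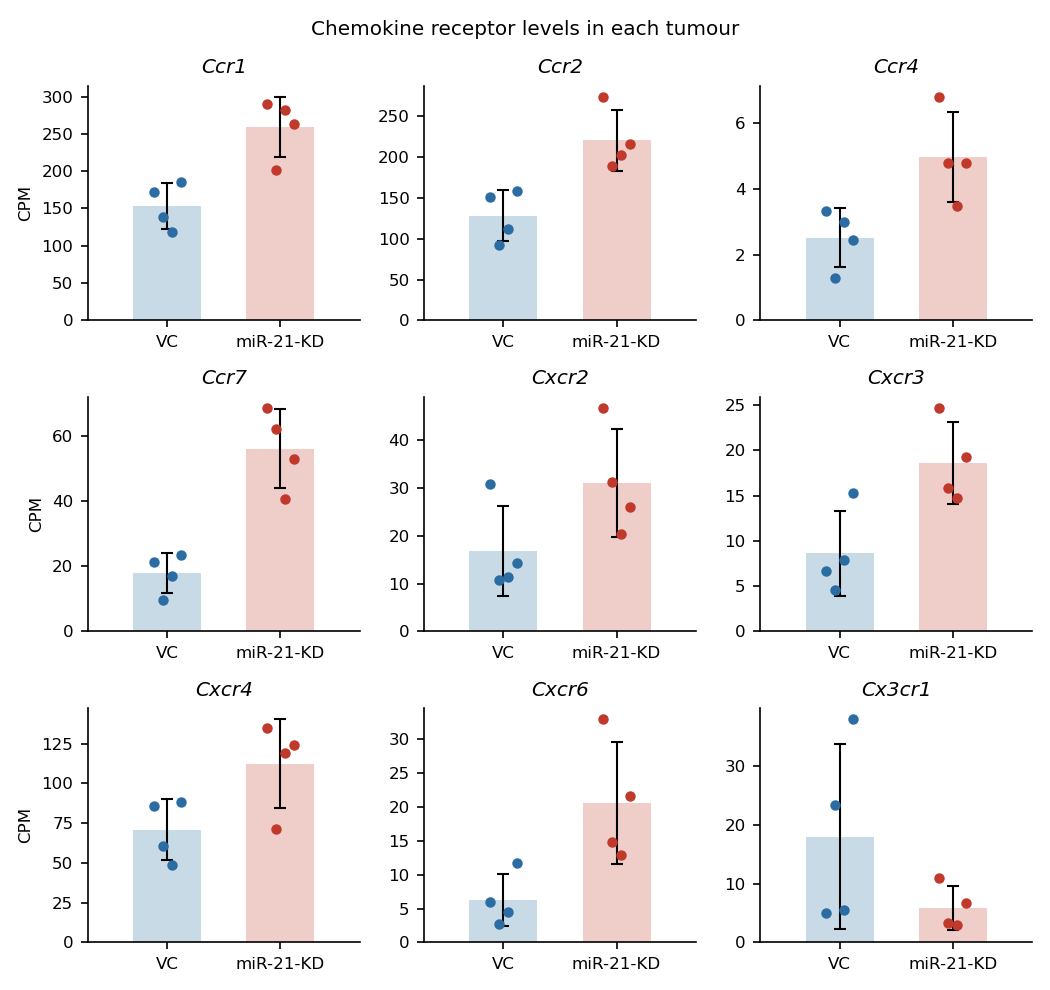
CPM of each receptor gene (vertical axes, linear and from 0) by tumour, 4 of VC and 4 of miR-21-KD, with points for tumours, bars for group means and error bars for the SD. Ccr1, Ccr2, Ccr4, Ccr7 and Cxcr6 have all 4 miR-21-KD points above all VC points, and for Cx3cr1 the points of VC replicates 2 and 4 stand above all others.

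The largest rise that held without each single tumour was in Ccr7, the lymph node homing receptor. It was at 21.4, 9.57, 16.9 and 23.5 CPM in VC tumours 1 to 4 and at 68.5, 62.1, 40.7 and 53.0 CPM in miR-21-KD tumours 1 to 4. The lowest miR-21-KD tumour was well above the highest VC tumour. The means were 17.9 ± 6.17 and 56.1 ± 12.1 CPM (SD, n = 4), a log2 fold change of 1.65 (SE 0.28) with an adjusted p of 0.00656. Its adjusted p stayed between 0.00544 and 0.0266 when tumours were left out in turn, and it was the 1 receptor past a test for a change above 1.5-fold (adjusted p = 0.0402, in a range of 2.25e-07 to 0.0402 over all its alternatives). Neither of its ligands could be tested. Ccl19 was listed at 0 in every tumour and Ccl21a had at most 3 counts, in VC replicate 4 and miR-21-KD replicate 4 only, and both belong to families of near-identical copies whose reads the counting could have split.

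Ccr1 and Ccr2, receptors of monocytes and macrophages, were among the most abundant. Ccr1 was at 172, 138, 118 and 185 CPM in the VC tumours and at 290, 202, 283 and 263 CPM in the miR-21-KD tumours. All miR-21-KD tumours were above all VC tumours, with miR-21-KD replicate 2 nearest to them. It rose by a log2 fold change of 0.76 (SE 0.17) with an adjusted p of 0.0123, and every setting that left out 1 tumour kept it past the threshold. Ccr2 was at 151, 92.0, 112 and 158 CPM in VC and at 273, 189, 203 and 216 CPM in miR-21-KD tumours. Here too the groups did not overlap, and VC replicates 2 and 3 were the lowest of the 8. Ccr2 rose by 0.78 on the log2 scale (SE 0.19) with an adjusted p of 0.0159, which became 0.0515 without VC replicate 3. Of the 50-base stretches of the Ccr2 transcripts 1.91% also occur in transcripts of other genes, so some of its reads could have been shared or dropped.

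The ligands of these receptors did not all move one way. All 5 chosen ligands of Ccr1 rose. Ccl3 went from 17.3 ± 7.62 to 40.3 ± 9.66 CPM (adjusted p = 0.0194, and 0.0541 without VC replicate 3), and Ccl5, which T cells also secrete, from 19.3 ± 9.91 to 72.6 ± 22.1 CPM (adjusted p = 0.00922). Ccl6 went from 694 ± 219 to 1933 ± 421 CPM and Ccl9 from 316 ± 103 to 1065 ± 287 CPM, so that these macrophage chemokines were the most counted ligands (adjusted p = 0.00694 and 0.00629). Ccl7, a ligand of both Ccr1 and Ccr2, went from 159 ± 19.7 to 277 ± 34.8 CPM (adjusted p = 0.00574). Ccl12, another ligand of Ccr2, went from 97.4 ± 11.0 to 176 ± 46.7 CPM (adjusted p = 0.0137). Ccl2, the main monocyte attractant through Ccr2, fell while its receptor rose. It was at 250, 317, 349 and 242 CPM in VC tumours and at 169, 179, 181 and 202 CPM in miR-21-KD tumours, with no overlap. The log2 fold change was -0.66 (SE 0.13) with an adjusted p of 0.00932, and it stayed past the threshold without any 1 tumour.

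Ccr4, Cxcr3 and Cxcr6, receptors of T cell subsets, rose with less certainty. Cxcr6, carried by effector and tissue-resident T cells, was at 5.97, 2.79, 4.49 and 11.8 CPM in VC and at 33.0, 14.9, 13.0 and 21.7 CPM in miR-21-KD tumours. The highest VC tumour, replicate 4, was just under the lowest miR-21-KD tumour, replicate 3, and miR-21-KD replicate 1 was the highest of all. Cxcr6 rose by 1.72 on the log2 scale (SE 0.46) with an adjusted p of 0.0205. The adjusted p became 0.0612 without VC replicate 3, 0.052 without miR-21-KD replicate 1 and 0.0513 without miR-21-KD replicate 4. It is the receptor with the seed match shown above. Its ligand Cxcl16, a chemokine that is held on the membrane of macrophages and dendritic cells before it is shed, rose from 143 ± 50.8 to 280 ± 65.4 CPM (adjusted p = 0.0196, and 0.0514, 0.0574 and 0.0532 without VC replicate 2, VC replicate 3 and miR-21-KD replicate 4).

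Cxcr3 was at 6.71, 4.55, 7.88 and 15.3 CPM in VC and at 24.7, 15.8, 14.7 and 19.3 CPM in miR-21-KD tumours. VC replicate 4 lay above miR-21-KD replicate 3, so the groups overlapped at that point. Cxcr3 rose by 1.11 on the log2 scale (SE 0.35) with an adjusted p of 0.0364. Without VC replicate 4 it was 1.53 with an adjusted p of 0.0087. The adjusted p was 0.0766, 0.0757 and 0.0916 without VC replicates 1, 2 and 3, and 0.0907, 0.054 and 0.0797 without miR-21-KD replicates 1, 3 and 4. Its interferon-induced ligands did not pass the test and varied most among VC tumours. Cxcl9 was at 147, 64.5, 180 and 395 CPM in VC and at 173, 224, 129 and 201 CPM in miR-21-KD tumours. VC replicate 4 was the highest and VC replicate 2 the lowest of the 8. The log2 fold change was -0.11 (SE 0.46), and for Cxcl10 it was -0.03 (SE 0.39), with adjusted p-values of 0.863 and 0.956. Both signs turned, to 0.11 and 0.11 with the replicate block, to 0.14 and 0.13 in limma-voom, to 0.47 and 0.43 without VC replicate 4 and to 0.02 and 0.12 without miR-21-KD replicate 3, and that of Cxcl10 also under upper-quartile scaling (0.01) and under a filter of 10 counts per tumour (0.02), so no direction is given for either.

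Ccr4, with few reads in either group, was at 3.32, 1.28, 2.99 and 2.45 CPM in VC and at 6.79, 4.79, 3.49 and 4.77 CPM in miR-21-KD tumours. The groups did not overlap, though VC replicate 1 and miR-21-KD replicate 3 nearly met. Ccr4 rose by 0.98 on the log2 scale (SE 0.33) with an adjusted p of 0.0423, and the call remained past the threshold in 2 of the 8 settings that left out 1 tumour. It was lost without VC replicate 2, 3 or 4 (0.0804, 0.0731 and 0.0716) and without miR-21-KD replicate 1, 2 or 4 (0.108, 0.0558 and 0.0821). Its ligands had larger changes. Ccl17, which dendritic cells secrete, was at 2.95, 1.60, 4.18 and 3.02 CPM in VC and at 40.0, 17.3, 12.0 and 36.2 CPM in miR-21-KD tumours. Its log2 fold change of 3.16 (SE 0.45, adjusted p = 0.00558) was the largest among the 19 ligands tested. Ccl22, a product of dendritic cells and macrophages, rose from 35.0 ± 10.2 to 126 ± 36.2 CPM (log2 fold change 1.85, SE 0.27, adjusted p = 0.00571).

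Cxcr2 and Cxcr4 were higher on average in miR-21-KD tumours without passing the test. Cxcr2, the neutrophil receptor, was at 30.8, 10.8, 11.3 and 14.3 CPM in VC and at 46.7, 31.4, 20.5 and 26.0 CPM in miR-21-KD tumours. VC replicate 1 lay within the miR-21-KD values, and each miR-21-KD tumour was above the VC tumour of its own number. The log2 fold change was 0.89 (SE 0.38) with an adjusted p of 0.0933. With the replicate number as a block it was 0.95 with an adjusted p of 0.00744, and without VC replicate 1 it was 1.36 with an adjusted p of 0.0127 (range over all alternatives 0.00744 to 0.434). Of the 50-base stretches of its transcripts 6.68% also occur in other genes, the largest share among the receptors. Of its ligands, which all carry the ELR motif, Cxcl3 rose from 10.4 ± 6.46 to 51.7 ± 21.6 CPM (adjusted p = 0.00855). Cxcl2 rose from 16.5 ± 11.2 to 48.9 ± 7.62 CPM and Cxcl5 from 32.1 ± 11.2 to 73.5 ± 28.1 CPM (adjusted p = 0.0173 and 0.0187, and 0.051 and 0.0566 without VC replicate 3). Cxcl1 had a log2 fold change of -0.49 (SE 0.23) and Ppbp, a platelet product, one of 0.25 (SE 0.35), with adjusted p-values of 0.116 and 0.579.

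Cxcr4 was at 85.9, 60.3, 48.9 and 88.3 CPM in VC and at 135, 71.4, 119 and 124 CPM in miR-21-KD tumours. A single tumour, miR-21-KD replicate 2, lay among the VC values. The log2 fold change was 0.66 (SE 0.24) with an adjusted p of 0.0577. It was 0.0247 with the replicate block, 0.0136 without miR-21-KD replicate 2 and 0.045 without VC replicate 4, in a range of 0.0136 to 0.597 over all alternatives. Cxcl12, its ligand and a product of stromal fibroblasts, was at 179, 43.2, 73.5 and 73.7 CPM in VC and at 736, 240, 252 and 365 CPM in miR-21-KD tumours. Replicate 1 was the highest tumour of each group, and the groups did not overlap. Cxcl12 rose by 2.11 on the log2 scale (SE 0.51) with an adjusted p of 0.0152. The summed level of 5 fibroblast markers moved with it, from 1582 to 3743 CPM in VC and 5491 to 11691 CPM in miR-21-KD tumours, and its part in the result was not tested.

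Cx3cr1 was the 1 receptor with a lower mean in miR-21-KD tumours. It was at 5.09, 23.4, 5.60 and 38.0 CPM in VC and at 10.9, 3.22, 2.92 and 6.65 CPM in miR-21-KD tumours. The VC tumours fell apart into 2 high libraries, replicates 2 and 4, and 2 low ones that lay within the miR-21-KD values. The log2 fold change was -1.60 (SE 0.72) with an adjusted p of 0.104, and leaving out tumours gave -2.07 to -0.94 with none past the threshold. In DESeq2 it passed (adjusted p = 0.0423, in a range of 0.0423 to 0.331 over all alternatives). An exon of Gm33858 on the opposite strand overlaps the gene, and the strand setting of the counting is not given in the sources used here, so their reads may not be told apart. Cx3cl1, its ligand, was at 35.1, 59.8, 54.4 and 63.1 CPM in VC and at 25.6, 22.9, 29.0 and 28.7 CPM in miR-21-KD tumours. Every miR-21-KD tumour was below every VC tumour. It fell by 1.00 on the log2 scale (SE 0.18, adjusted p = 0.00739), and kept the call without any 1 tumour.

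**Figure D2:**
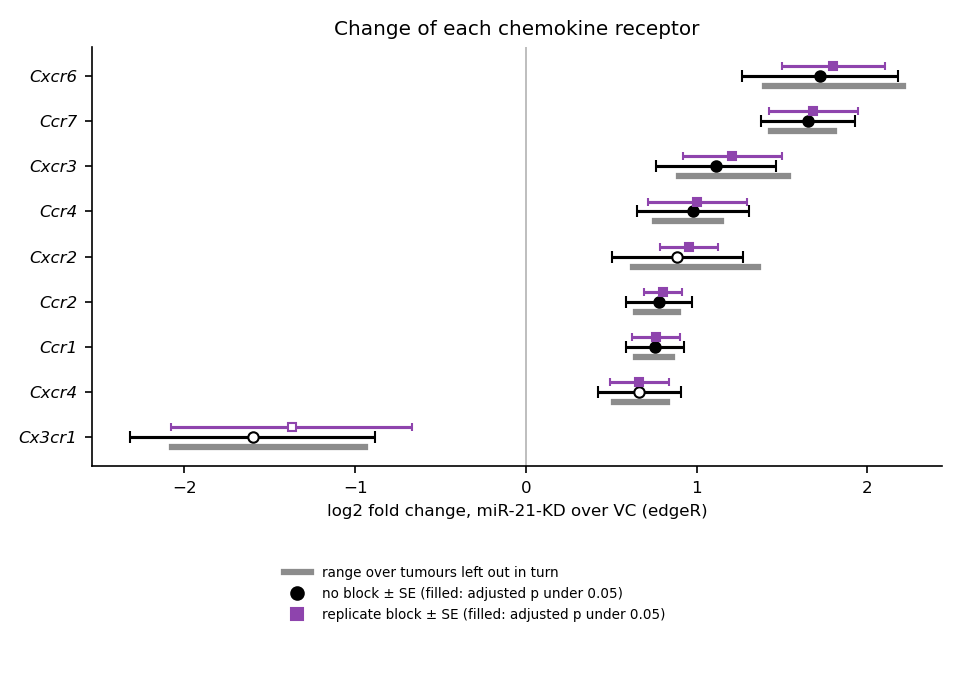
Log2 fold change, miR-21-KD over VC, of each receptor (horizontal axis) without a block (black circles, ± SE) and under a replicate block (purple squares, ± SE), and the range when each tumour is left out in turn (grey). Filled symbols are past an adjusted p of 0.05, and 8 receptors lie right of 0 in all 3, while Cx3cr1 lies left of 0 with the widest SE.

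Over the 21 ligands, 13 rose, 2 fell (Ccl2 and Cx3cl1), 4 did not pass the test and 2 were not tested, with a median log2 fold change of 1.19 among the 19 tested. The shares over all tested genes were 19.6% higher and 19.5% lower. At least 1 ligand rose for Ccr1, Ccr2, Ccr4, Cxcr2, Cxcr4 and Cxcr6. Cx3cl1 lies at chr8:94772009-94782427 between Ccl22 (chr8:94745590-94751699) and Ccl17 (chr8:94810453-94812036), all on the plus strand of GRCm38, and it fell where both neighbours rose.

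**Figure D3:**
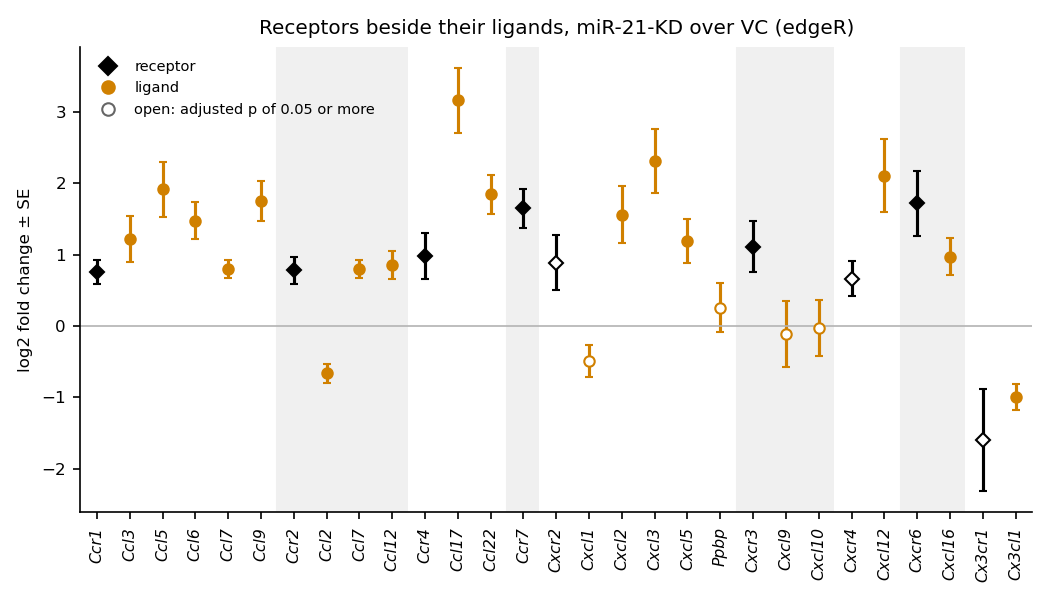
Log2 fold change ± SE (vertical axis), miR-21-KD over VC, of each receptor (black diamonds) followed by its tested ligands (orange circles), with receptors set apart by shading and Ccl7 shown under both of its receptors. Filled symbols are past an adjusted p of 0.05, and the filled circles below 0 are Ccl2 and Cx3cl1.

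Between receptors, levels were compared as CPM per kilobase of exon. In VC tumours Ccr1 was first with 54.2 ± 10.8, followed by Cxcr4 with 39.2 ± 10.7, Ccr2 with 19.0 ± 4.65 and Ccr7 with 9.03 ± 3.12 CPM per kilobase. Cxcr2 (5.52), Cxcr3 (4.97), Cx3cr1 (4.00) and Cxcr6 (3.24) came next, and Ccr4 was last with 0.812 ± 0.290 CPM per kilobase. The tumours of neighbours in this order overlapped in range except between Cxcr4 and Ccr2, between Ccr2 and Ccr7, and between Cxcr6 and Ccr4. In miR-21-KD tumours the first 4 kept their places, at 91.5 ± 14.1, 62.1 ± 15.5, 32.5 ± 5.46 and 28.4 ± 6.10 CPM per kilobase. Ccr7 there overlapped in range with Ccr2. Cxcr3 (10.7), Cxcr6 (10.7) and Cxcr2 (10.2) followed with overlapping ranges and apart from Ccr7, and Ccr4 (1.60) and Cx3cr1 (1.32) were last, apart from those and overlapping with each other. Cx3cr1 thus went from seventh place to the last.

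Ptprc and many, though not all, leukocyte markers rose in the miR-21-KD tumours. Ptprc, which encodes CD45, was at 203, 132, 141 and 280 CPM in VC and at 482, 320, 323 and 376 CPM in miR-21-KD tumours, with no overlap (log2 fold change 0.99, SE 0.25, adjusted p = 0.018, and 0.0536 without VC replicate 3). Of 11 T cell markers 7 rose, and their summed level was 53.9 to 218 CPM in VC and 187 to 414 CPM in miR-21-KD tumours. Of 11 monocyte and macrophage markers 8 rose, with sums of 3438 to 5373 and 6330 to 10783 CPM. Of 8 dendritic cell markers, Xcr1 and Ccl22 among them, 4 rose, with sums of 73.2 to 209 and 285 to 496 CPM. The T cell sums overlapped between the groups through VC replicate 4 and the other pair of sums did not. Of 7 natural killer cell markers 2 rose (20.9 to 112 and 75.6 to 128 CPM), against 4 in DESeq2 and 4 in limma-voom. The share of all tested genes that rose in edgeR was 19.6%. For dendritic cell markers the count was 7 in DESeq2 and 5 in limma-voom. Of the 6 neutrophil markers that could be tested (Ly6g could not) 0 passed in edgeR, 1 of them at an unadjusted p under 0.05, and 1 passed in DESeq2 and 1 in limma-voom, with sums of 283 to 772 CPM in VC and 354 to 663 CPM in miR-21-KD tumours. Of 5 tumour epithelium markers 3 rose and 1 fell, with sums of 1282 to 2202 and 787 to 1812 CPM. The part of these cell types in the receptor results was not tested beyond the ratios that follow.

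Relative to Ptprc, Cx3cr1 differed more between the groups than in CPM, and the other receptors differed less. The log2 CPM of Ptprc (prior count 2) was subtracted from that of each receptor in each tumour and the groups were compared by an exact two-sided permutation test, whose smallest p for 4 against 4 is 0.0286. None of the 9 differences passed after adjustment over the 9 tests, and none could have unless at least 6 of the 9 had reached that smallest p, so the adjusted values say little. Ccr7 relative to Ptprc averaged -3.40 ± 0.32 in VC, against -2.74 ± 0.27 in miR-21-KD tumours, a difference of 0.66 with all 4 miR-21-KD tumours above all VC tumours (exact permutation p = 0.0286, adjusted 0.129). Cx3cr1 relative to Ptprc was -3.81 ± 1.34 and -6.13 ± 0.61, a difference of -2.31 with all 4 miR-21-KD tumours below all VC tumours (exact permutation p = 0.0286, adjusted 0.129). So on this scale Cx3cr1 no longer overlapped between the groups, though VC replicate 1 (-5.28) and miR-21-KD replicate 1 (-5.44) nearly met. For Ccr7, VC replicate 3 (-3.04) and miR-21-KD replicate 3 (-2.98) nearly met as well. Cxcr6 differed by 0.75, with 3 of 4 miR-21-KD tumours above all VC tumours (exact permutation p = 0.0571, adjusted 0.171). Within pairs of the same replicate number, Ccr7 and Cxcr6 were higher and Cx3cr1 lower in all 4 pairs (paired exact permutation p = 0.125 for each, the smallest that 4 pairs allow). The differences of Ccr1 (-0.27), Ccr2 (-0.24), Ccr4 (-0.06), Cxcr2 (-0.08), Cxcr3 (0.17) and Cxcr4 (-0.37) had exact permutation p-values of 0.143 to 0.886. The change of these 6 in CPM was thus not detectably different from that of Ptprc with 4 tumours a group.

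**Figure D4:**
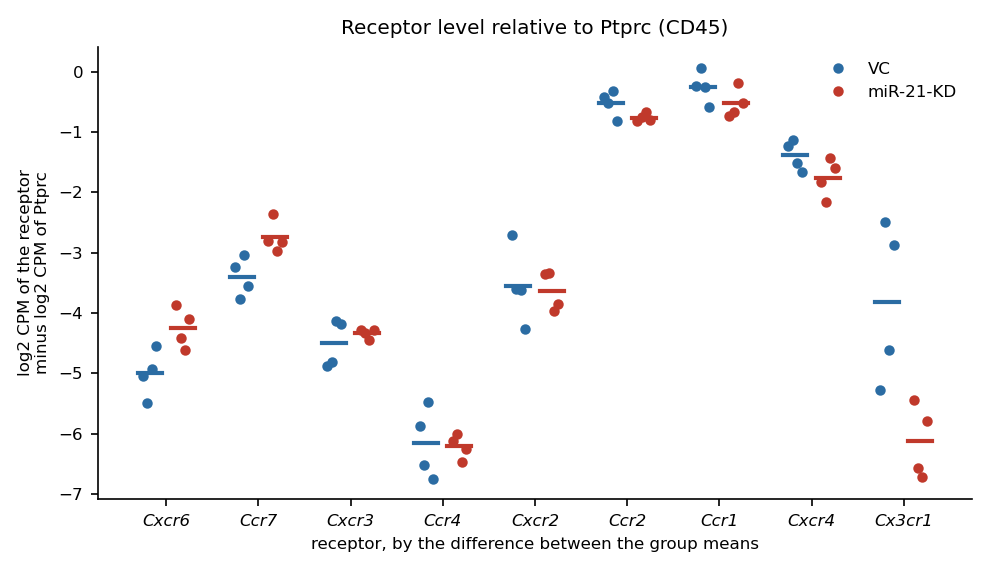
Log2 CPM of each receptor minus log2 CPM of Ptprc (vertical axis) in each VC (blue) and miR-21-KD (red) tumour, with lines for group means and receptors ordered by the difference between the means. For Ccr7 all 4 miR-21-KD points are above the VC points, and for Cx3cr1 all 4 are below.

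All receptors but Cxcr4, which most leukocytes carry, were also set against a gene of a cell type known to carry them, in 8 tests, and none passed after adjustment over them, which would have needed at least 5 of the 8 at the smallest p. Relative to Cd3e, a subunit of the T cell receptor complex, Ccr7 differed by 0.10 (exact permutation p = 0.6), Cxcr6 by 0.19 (0.371), Cxcr3 by -0.39 (0.171) and Ccr4 by -0.61 (0.114). Cd3e itself rose from 9.65 ± 4.73 to 27.9 ± 8.89 CPM (adjusted p = 0.0166, and 0.0525 without VC replicate 3). For Ccr7, the number of miR-21-KD tumours above the highest VC tumour was 4 relative to Ptprc and 1 relative to Cd3e. Relative to Csf1r, the macrophage growth factor receptor, which rose from 454 ± 111 to 926 ± 236 CPM (adjusted p = 0.0127), Ccr1 differed by -0.26 (exact permutation p = 0.0571) and Ccr2 by -0.22 (0.257). Cx3cr1 differed by -2.30 from Csf1r, with all 4 miR-21-KD tumours below all VC tumours (exact permutation p = 0.0286, adjusted 0.229). Ccr1 and Cx3cr1 were lower relative to Csf1r in all 4 pairs of the same number (paired exact permutation p = 0.125 for each). Cxcr2 relative to Csf3r, the neutrophil growth factor receptor, differed by 0.16 (exact permutation p = 0.371). Csf3r was at 76.8 ± 29.4 and 130 ± 36.6 CPM (adjusted p = 0.0581, and 0.00326 with the replicate block).

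Among tumours of the same group, the receptors varied together to unequal degrees. After each group's mean was removed, Pearson's r between log2 CPM over the 8 tumours was 0.151 to 0.979 (median 0.670) in the 28 pairs without Cx3cr1 and -0.213 to 0.499 (median 0.331) in the 8 pairs with it. The 8 tumours are shared by all pairs, and these values are a description. The genes most like each receptor, of 13104 compared, are given with r. Ccr7 was most like Mmp25 (0.999) and Ctla4 (0.987), an inhibitory receptor of T cells. Cxcr3 was most like Zap70 (0.995), a kinase of T cell receptor signalling, and Ciita (0.993), the transactivator of MHC class II genes. Cxcr6 was most like Cd4 (0.988), the coreceptor of helper T cells, and Akna (0.986), and Ccr4 most like Il18r1 (0.984), an interleukin-18 receptor chain, and AI504432 (0.982). Ccr1 was most like Galnt18 (0.986) and Fcgr3 (0.981), an Fc receptor of myeloid cells, and Ccr2 most like Gpx3 (0.995) and Pheta2 (0.995). Cxcr2 was most like Inpp4b (0.985) and Pcdh19 (0.978), Cxcr4 most like Dipk2a (0.992) and Nipsnap3b (0.991), and Cx3cr1 most like Rfxank (0.994) and Abcg3 (0.984). Without the 2 tumours farthest from the median of the receptor, r lay between 0.854 and 0.996. The genes were picked for the highest r over these same tumours, so those values are no separate check.

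Of 8 other chemokine receptors, 2 rose, 0 fell and 5 did not pass, with a median log2 fold change of 0.96 among the 7 tested. Across all tested genes 19.6% rose and 19.5% fell, and with 7 genes a count of 2 says little beside that share. At an unadjusted p under 0.05 in edgeR 0 of them were lower, and 0 were lower past the threshold in DESeq2. Ccr3, the eosinophil receptor, rose from 14.1 ± 8.99 to 40.7 ± 9.59 CPM (1.53, SE 0.42, adjusted p = 0.0236). Ccr8, carried by regulatory T cells, rose from 1.84 ± 0.898 to 4.07 ± 0.786 CPM (1.15, SE 0.35, adjusted p = 0.0324). These calls held in 3 and 1 of the 8 settings that left out a tumour. The count of 2 became 0 in edgeR without VC replicate 2 or 3 or miR-21-KD replicate 1 or 4, where the adjusted p of Ccr3 was 0.0509 to 0.0633 and that of Ccr8 0.0553 to 0.0784. Without miR-21-KD replicate 3 both also lost the call while Ccr9 passed (0.0393), and without VC replicate 4 Ccr6 (0.0487) and Xcr1 (0.0335) passed beside them. Without VC replicate 1 Ccr8 lost the call (0.069) while Cxcr1 (0.0244) and Ccr9 (0.0284) passed, and without miR-21-KD replicate 2 Ccr8 lost it (0.0552) while Xcr1 passed (0.0349). Xcr1, the receptor of cross-presenting dendritic cells, had a log2 fold change of 0.96 (adjusted p = 0.069), Ccr9 of 1.18 (0.0545), Ccr6 of 0.91 (0.152) and Cxcr1 of 0.66 (0.233). Cxcr5, the follicular homing receptor, had one of 0.07 (0.931), and VC replicate 4 was its highest tumour at 10.8 CPM. Without that tumour it was 0.90 (0.0638), and it was -0.19, -0.13 and -0.08 without VC replicates 1, 2 and 3 and -0.21 without miR-21-KD replicate 4. Ccr10, at 0.585 ± 0.133 and 0.279 ± 0.281 CPM, was too low to test.

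Several of these genes are neighbours. Cxcr6 (chr9:123806475-123811760), Ccr1 (chr9:123962124-123968692) and Ccr2 (chr9:124101950-124113557) lie in 1 stretch of chromosome 9 with Xcr1 (chr9:123852315-123862029) and Ccr3 (chr9:124021972-124031689), in GRCm38 coordinates of the annotation. Ccr9 (chr9:123678439-123784330) is beside Cxcr6 in the same stretch. Of these genes Cxcr6, Ccr1, Ccr2 and Ccr3 rose, and Ccr9 and Xcr1 did not pass. Ccr4 (chr9:114490316-114504916) and Cx3cr1 (chr9:119901616-120069879) are elsewhere on chromosome 9, and the one rose while the other did not pass. Ccr8 (chr9:120092114-120094906), which rose, is beside Cx3cr1. Cxcr2 (chr1:74153989-74161246) and Cxcr4 (chr1:128588199-128592293) are on chromosome 1, Ccr7 (chr11:99144196-99155077) on chromosome 11 and Cxcr3 (chrX:101731535-101734269) on chromosome X.

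Atypical receptors, which bind chemokines without G protein signalling, and related receptors numbered 6, of which 4 rose, 0 fell (0 also at an unadjusted p under 0.05 and in DESeq2) and 2 did not pass, with a median log2 fold change of 0.90. Beside this, 19.6% of all tested genes rose and 19.5% fell. Ackr3, a scavenger of Cxcl12, was at 81.1, 56.2, 55.6 and 64.6 CPM in VC and at 114, 105, 143 and 105 CPM in miR-21-KD tumours. The groups did not overlap (0.86, SE 0.15, adjusted p = 0.007). Ackr1, carried by venular endothelium, rose from 2.34 ± 1.18 to 7.56 ± 2.54 CPM (adjusted p = 0.0163), Ccrl2 from 14.6 ± 3.78 to 30.2 ± 8.26 CPM (0.0128) and Cmklr1, the chemerin receptor, from 45.1 ± 11.4 to 72.3 ± 19.2 CPM (0.038). Cmklr1 lost the call without VC replicates 1, 2 or 3 (0.0793, 0.0856 and 0.103) and without miR-21-KD replicates 1 or 4 (0.0855 and 0.0786). Ackr2 (0.59, adjusted p = 0.317) and Ackr4 (0.95, 0.135, and 0.0288 without VC replicate 4) did not pass.

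Downstream of the receptors, 17 of 32 genes for G proteins, receptor kinases, arrestins, regulators of G protein signalling and phosphoinositide 3-kinase gamma and Rac signalling rose, 1 fell and 14 did not pass, with a median log2 fold change of 0.61. For all tested genes the shares were 19.6% higher and 19.5% lower. The count of 17 became 6 without VC replicate 3 and 9 without VC replicate 2, miR-21-KD replicate 1 or miR-21-KD replicate 4. Pik3r6, a regulatory subunit of phosphoinositide 3-kinase gamma, was at 8.48, 8.62, 7.64 and 13.2 CPM in VC and at 32.4, 18.5, 21.3 and 25.8 CPM in miR-21-KD tumours (1.37, SE 0.23, adjusted p = 0.00664). Arrb1, beta-arrestin 1, rose from 104 ± 16.8 to 179 ± 23.7 CPM (0.78, SE 0.14, adjusted p = 0.00715), and Gnai1, an inhibitory G protein alpha subunit, from 4.16 ± 1.20 to 12.2 ± 4.27 CPM (1.55, SE 0.30, adjusted p = 0.00815). In none of these did the groups overlap. The gene that fell was Rapgef1, an exchange factor for Rap1, from 248 ± 17.9 to 163 ± 19.3 CPM (-0.60, SE 0.10, adjusted p = 0.00678). With the replicate block Pik3cg and Rac2 also passed (adjusted p = 0.042 and 0.0125, against 0.0681 and 0.0795 without it).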

How the data were processed

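The table deposited by the authors holds unnormalized read counts for Entrez gene identifiers, 1 column per tumour. Per the labels, their processing notes name Subread, featureCounts, edgeR, limma and the mm10 build. Versions, annotation and strand setting are not given in the sources used here. Symbols matched 25275 of 27179 identifiers, and positions came from GENCODE vM21 on the same build. With edgeR 4.0.16 in R 4.3.3, filterByExpr (minimum count 10, minimum total 15) kept 14382 genes and left out 12797. TMM scaling and a robust quasi-likelihood fit served to compare the groups, with Benjamini-Hochberg adjustment over all tested genes at 0.05. CPM used the scaled library size. Alternatives were DESeq2 1.42.0, limma-voom 3.58.1, other scalings and filters, a 1.5-fold minimum, a replicate block and leaving out each tumour. The labels number the tumours 1 to 4 without a stated batch. Deviations of same-numbered tumours from their group means correlated by 0.175 to 0.421 in every pair (mean 0.31, and -0.10 for other pairs). Because group means were removed, a positive mean for same-numbered pairs tends to push that of the others below 0. miR-21-KD replicates 2 and 4 correlated best with their own number, and replicates 1 and 3 with VC replicates 4 and 2 (0.334 and 0.204). Whether the numbers pair the tumours is thus not settled. Block values are given where they change a call. The test without the block was set as the main one. No tumours of a group agreed within sampling noise (chi-square per degree of freedom 12.6 to 70.7). Members and lists were chosen with earlier results of these data known. All receptors and their ligands, the other receptors, the 3 signalling genes of smallest adjusted p in each direction (1 fell), and the 2 genes most like each receptor with at least 1 log2 CPM on average were named, with Ptprc, lineage genes and Vmp1. The atypical receptors and genes with a tumour far from the others or a call that the block changed were named after their values were seen. A further gene is not reported here.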

Additional observations from a re-analysis of the deposited data

Results flagged for a closer look

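Of 160 groups of 4 tumours, 12 held a tumour far from the other 3 by Dixon's criterion at 95%, which chance gives in about 1 group in 20, and none of the 9 receptors was among them. In VC replicate 4 the high values were Cxcr5 at 10.8 CPM (others 1.92 to 3.23), Ccl21a at 0.163 CPM (others 0), Gng2 at 72.5 CPM (48.5 to 52.6), Arrb2 at 181 CPM (105 to 107), Vav1 at 92.3 CPM (48.7 to 56.1) and Rac2 at 223 CPM (93.0 to 115). In VC replicate 1 they were Cxcr1 at 1.25 CPM (0.399 to 0.473) and Rgs18 at 5.83 CPM (2.60 to 2.94). In the miR-21-KD group they were Csf3r at 184 CPM in replicate 1 (108 to 119), Grk6 at 147 CPM in replicate 2 (113 to 118), Rgs16 at 68.8 CPM in replicate 3 (43.5 to 47.4) and Ccl21a at 0.235 CPM in replicate 4 (others 0). The Ccl21a values stand on at most 3 counts.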

How the results depend on the processing

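Over the alternatives no receptor changed direction, and its log2 fold change kept its call or its lack of one in 113 combinations of receptor and setting, passed in 9 where it had not, and was lost in 22. The number of receptors that rose was 8 with the replicate block and 8 in DESeq2, against 6, and 1 under a minimum change of 1.5-fold, where Ccr1 (0.76), Ccr2 (0.78), Ccr4 (0.98), Cxcr3 (1.11) and Cxcr6 (1.72) lost the call. Ccr4 also lost it without a filter on low counts (0.94). In this paragraph the value in brackets after the name of a receptor is its log2 fold change. With the replicate block Cxcr2 (0.95) and Cxcr4 (0.66) passed, in DESeq2 Cxcr2 (0.91), Cxcr4 (0.69) and Cx3cr1 (-1.58, the 1 receptor that was lower) passed, and Cxcr4 (0.72) passed with at least 10 counts in every tumour. The block changed no other call among receptors, ligands, other receptors and atypical receptors. Leaving out tumours in turn gave 2 to 6 receptors, with log2 fold changes of 0.64 to 0.89 for Ccr2, 0.75 to 1.14 for Ccr4, 0.62 to 1.36 for Cxcr2, 0.90 to 1.53 for Cxcr3, 0.52 to 0.82 for Cxcr4 and 1.40 to 2.21 for Cxcr6. It gave 1449 to 3290 genes higher (2826 with all tumours) and 1487 to 3550 lower (2800), 0 to 4 other receptors (2 with all tumours) and 6 to 22 signalling genes. With 1.5-fold as the minimum 334 genes were higher and 208 lower, 6 ligands were higher and 0 lower (1 at an unadjusted p under 0.05), 1 signalling gene was higher and 0 lower, and 0 other and 0 atypical receptors passed (3 of each unadjusted). Of the markers that rose, 2 of dendritic cells and 1 of tumour epithelium passed that test, and 0 of T cells, monocytes and macrophages, and fibroblasts (7, 8 and 4 unadjusted). DESeq2 called 4 other receptors. The cause of these differences was not tested, beyond the fewer tumours or the stricter test by which each was made. The prior count and the tumour left out moved no ratio to Ptprc or a lineage gene by more than the spread between tumours. For Ccr4, with 16 to 84 reads a tumour, counting error is part of the spread.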
